A study of Mus musculus with 8 samples.

Results

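TDP-43, encoded by Tardbp in the mouse, is an RNA-binding protein of the nucleus that is depleted from neuronal nuclei and aggregated in the cytoplasm in amyotrophic lateral sclerosis and frontotemporal degeneration. The values below describe 3 transcripts in the cortex of mice that express a cytoplasmic human TDP-43: the transcript uc999vvf.1, called the transgene transcript here, the prion protein gene Prnp (uc008mly.2) and the endogenous Tardbp (uc008vvg.1). They were taken by transcript identifier from a table of 28662 transcripts, and all 3 were among the 10588 genes that passed a filter of 10 RPM (reads scaled by the total of their library) in at least 1 mouse. The 3 transcripts were chosen by their values in bigenic and nontransgenic mice, so their differences are given as a description, with a standard error (SE) and without a test.

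Bigenic mice carried Camk2α-tTa together with tetO-ΔNLS-hTDP-43, and the control mice, called nontransgenic, carried neither and were bred from parents heterozygous for both. All mice were C57BL/6. Doxycycline was fed to both groups until 28 days of age and then withdrawn, and poly(A)+ RNA of the right cortex was sequenced in 4 mice of each genotype once they had been off doxycycline for 10 days. The Camk2α promoter is active mainly in excitatory neurons of the forebrain, and in this tet-off system doxycycline keeps the tTa activator from the tetO promoter. No group carried only Camk2α-tTa or only tetO-ΔNLS-hTDP-43, so the effect of either alone cannot be told apart from that of the pair. The deposited columns name the group and carry numbers of their own that match no label of a sample, and mice are called A to D here in the order of the columns. By the methods of the study each group held mice of both sexes. The columns do not name the sex, and it was not part of the fit. The number of reads on genes was estimated from the spacing of the values in each column. It was 10.6 M (bigenic B) to 31.9 M (bigenic D) in a bigenic mouse and 20.2 M to 28.97 M in a nontransgenic mouse. Bigenic mouse B, the shallowest library by this estimate, stood apart from its group in several values below. The main values are also given without mouse B.

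In a normal neuron TDP-43 is carried into the nucleus by importins that recognise its nuclear localization signal. It regulates splicing and 3′ end use of many transcripts, mostly by binding UG-rich sequence, and it holds down its own mRNA by binding the 3′ UTR of that mRNA, a feedback known as autoregulation. The prion protein is a glycoprotein tethered to the outer face of the neuronal membrane by a glycosylphosphatidylinositol (GPI) anchor. It is expressed widely in the brain, and its promoter and flanking regions have often been used to build transgenes for neurons.

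The altered codons of the nuclear localization signal lie in a coding exon of Tardbp, exon 3 of 6 of its main transcript. A stretch that holds them lies at chr4:147996190-147996219 on the minus strand of mm9 (NCBIM37). The stretch is shown because the transgene differs from wild-type TDP-43 in the codons in capitals, which are codons 82 to 84 of the 414 residues of mouse TDP-43 and encode lysine, arginine and lysine. In the transgene these are replaced by alanine (K82A, R83A and K84A, counted from the first residue of the protein). The sequence below is that of the mouse reference genome and covers codons 81 to 90. The human sequence was not used here.

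mouse Tardbp codons 81 to 90: aacAAAAGGAAAatggatgagacagatgct

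The transgene transcript had the largest increase of all genes tested, from under 100 normalized counts in every nontransgenic mouse to one of the more abundant transcripts of the bigenic cortex. It had 32947, 29375, 41550 and 39690 normalized counts in bigenic mice A to D and 19, 80, 12 and 5 in nontransgenic mice A to D. The normalized counts are whole numbers that the authors scaled by a factor per mouse, and 3 reads, taken as the floor for detection, correspond to between 1.94 and 6.20 of them. All 4 bigenic mice lay far above all 4 nontransgenic mice, with the lowest bigenic value 367 times the highest nontransgenic value. The means were 35890.5 ± 5703 in the bigenic mice and 29 ± 34.5 in the nontransgenic mice (SD, n = 4 each), and the log2(fold change) was 10.88 (SE 0.62) on the log2(normalized count + 1) scale. It changed to 11.58 without nontransgenic mouse B and to 10.33 without nontransgenic mouse D, the mice with the highest and the lowest control value.

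**Figure D1:**
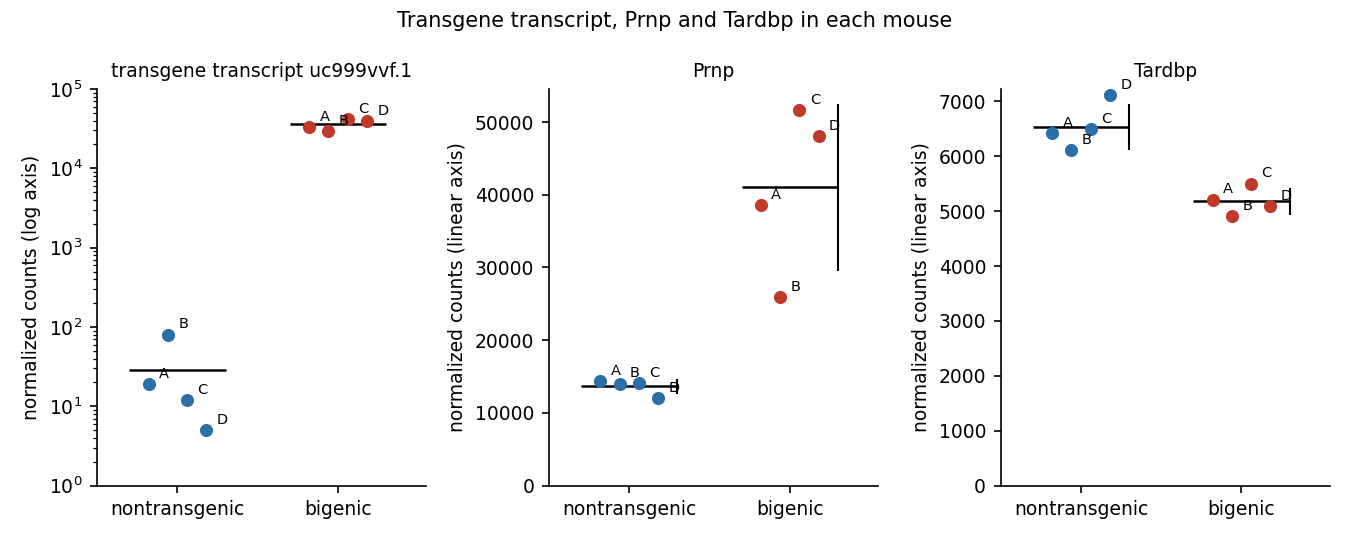
Normalized counts of the transgene transcript (log axis), Prnp and Tardbp (linear axes from 0) in each of 4 nontransgenic (blue) and 4 bigenic (red) mice, with horizontal bars at the group means and vertical bars of 1 SD on the linear axes. The groups are apart in all 3 panels, with the bigenic mice above for the transgene transcript and Prnp and below for Tardbp, where the highest bigenic mouse has 5502 and the lowest nontransgenic mouse 6116.

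In the bigenic cortex the transgene transcript took between 0.134% and 0.200% of all normalized counts, or 1722 ± 300 RPM (SD, n = 4). In the nontransgenic cortex its values correspond to about 20.2, 79.0, 13.3 and 6.89 reads in mice A to D, all above the floor of 3 reads. Nontransgenic mouse B had the highest of these and mouse D the lowest, while Prnp and Tardbp gave other orders in the same mice. These reads were not traced to a source. The annotation of mm9 does not hold uc999vvf.1 and the table gives it no symbol. Its name as the transgene transcript rests on this difference between the groups and on the labels, where the name of the authors' comparison joins the mouse build with human TDP-43, and no source used here states what the transcript is. Its length is not known here.

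Prnp, the gene of the cellular prion protein, was higher in every bigenic mouse than in any nontransgenic mouse. It had 38521, 25959, 51654 and 48021 normalized counts in bigenic mice A to D and 14398, 14040, 14102 and 12066 in nontransgenic mice A to D. Bigenic mice C and D were the highest and bigenic mouse B the lowest of its group, still well above the highest nontransgenic mouse. The mean was 41039 ± 11477 in the bigenic mice against 13651.5 ± 1068 in the nontransgenic mice (SD, n = 4 each), a ratio of 3.01 and a log2(fold change) of 1.54 (SE 0.19). Without bigenic mouse B the mean of the other bigenic mice was 46065 ± 6781 (SD, n = 3) and the ratio 3.37.

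Endogenous Tardbp was lower in every bigenic mouse than in any nontransgenic mouse, by a much smaller amount. It had 5212, 4908, 5502 and 5098 normalized counts in bigenic mice A to D and 6416, 6116, 6502 and 7116 in nontransgenic mice A to D. Bigenic mouse C, the highest of its group, stayed below nontransgenic mouse B, the lowest of the controls. The bigenic mice held 79.7%, 75.1%, 84.2% and 78.0% of the nontransgenic mean in mice A to D, and the log2(fold change) was -0.33 (SE 0.07). Without bigenic mouse B it was -0.31 (SE 0.06). In RNA from whole cortex, fewer cells of a type and less RNA per cell cannot be told apart.

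Against the background of all genes, the 3 transcripts stood at very different places. Of the 10588 genes tested, 3796 (35.9%) passed an adjusted p-value of 0.05 with limma and the Benjamini-Hochberg adjustment, 2167 of them higher (20.5%) and 1629 lower (15.4%) in the bigenic mice, and 4132 (39.0%) had groups that did not overlap. The transgene transcript held place 1 by the size of its rise and Prnp place 30. For Prnp 55 genes had a larger log2(fold change) in either direction, and for Tardbp 3954 genes did. The median log2(fold change) of all genes was 0.029.

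**Figure D2:**
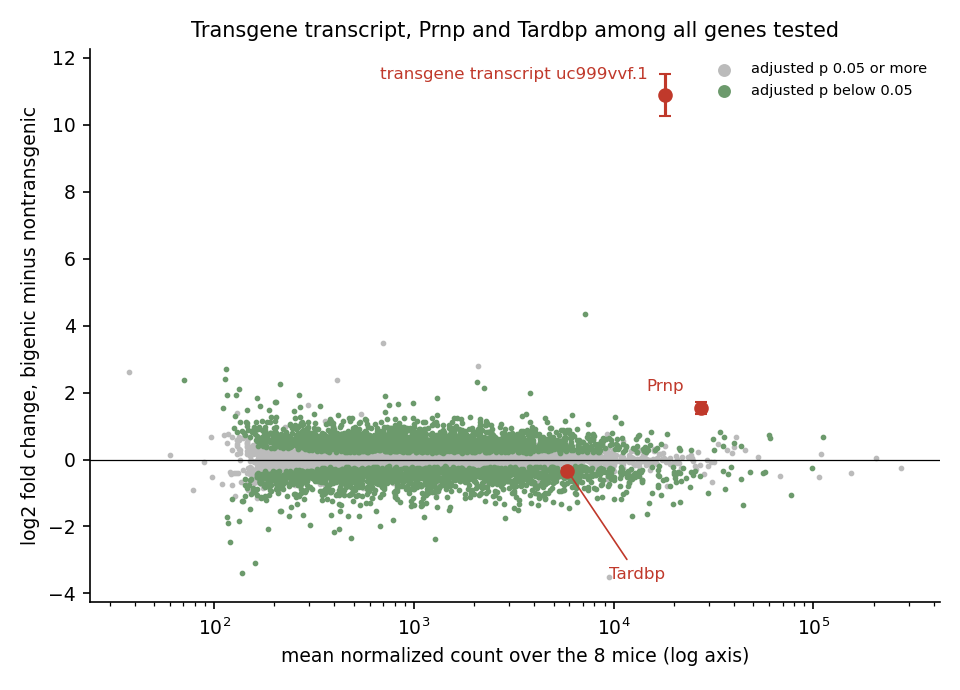
Log2(fold change), bigenic minus nontransgenic, against the mean normalized count over the 8 mice (log axis) for all 10588 genes tested, in green where the limma adjusted p-value is below 0.05, with the transgene transcript, Prnp and Tardbp in red with bars of 1 standard error. The transgene transcript lies alone at 10.88, Prnp lies at 1.54 among the most abundant genes, and Tardbp lies close to 0 at -0.33.

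The 3 transcripts also differed in how far the mice of a group spread. Among the bigenic mice the SD of log2(normalized count + 1) was 0.23 for the transgene transcript, 0.45 for Prnp and 0.07 for Tardbp, where the median of all genes was 0.19. The SD of Prnp was above that of 92.8% of the genes tested, and that of Tardbp was above that of 8.43%. Among the nontransgenic mice Prnp and Tardbp spread alike, with SDs of 0.12 and 0.09 and a median over all genes of 0.10. The highest bigenic value of Prnp was 1.99 times the lowest, against 1.19 times in the nontransgenic mice, and for Tardbp these ratios were 1.12 and 1.16. The spread of Prnp rested largely on bigenic mouse B. Without it the SD of Prnp was 0.22 and the highest value 1.34 times the lowest, while the median SD of all genes was 0.096 and 89.5% of them had a smaller SD than Prnp. For Tardbp the SD without mouse B was 0.057, above that of 24.2% of the genes, and without mouse C it was 0.044, above that of 4.14%.

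Within the bigenic group Prnp was ordered like the transgene transcript. Both were lowest in mouse B, followed by A, D and C in rising order, and Tardbp was also lowest in B and highest in C but with D below A. With 4 mice no correlation was computed. The plot of both genes against the transgene transcript shows these orders. The order B, A, D and C was not particular to Prnp. Gcnt4, higher in the bigenic mice, and Slc39a10, Ran and Mtap2, lower in them, had it as well. The share of all genes with this order was not counted.

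**Figure D3:**
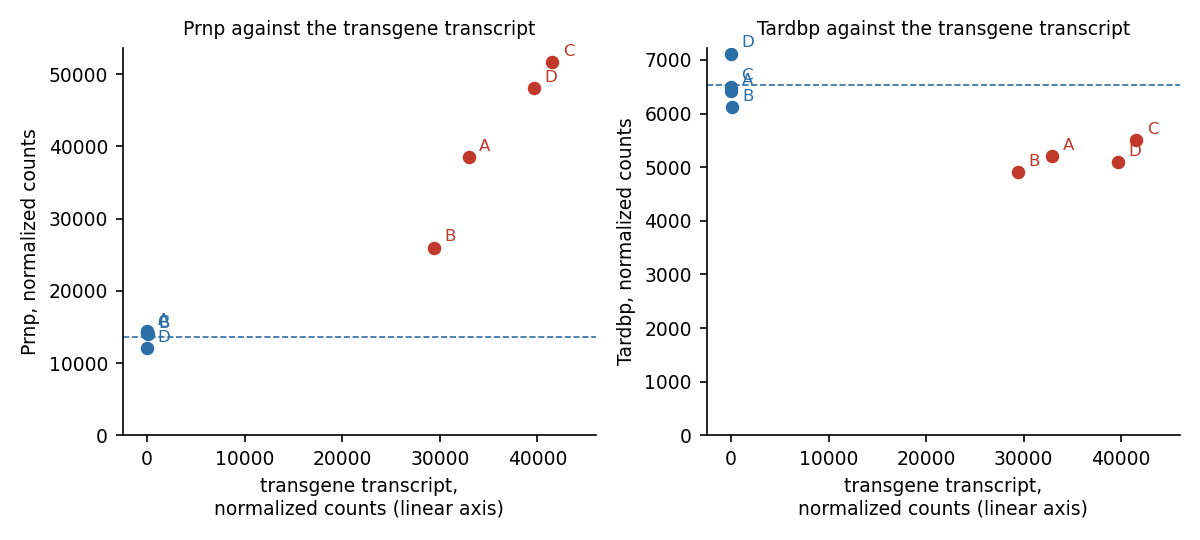
Normalized counts of Prnp (left) and Tardbp (right) against those of the transgene transcript in the same mouse, for 4 nontransgenic (blue) and 4 bigenic (red) mice, with a dashed line at the nontransgenic mean, and linear axes. Among the bigenic mice Prnp runs from 25959 in mouse B to 51654 in mouse C as the transgene transcript runs from 29375 to 41550, while Tardbp stays between 4908 and 5502.

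The amounts of Prnp and of the transgene transcript were of the same size. Above the nontransgenic mean, Prnp held 24869.5 normalized counts more in bigenic mouse A, 12307.5 in B, 38002.5 in C and 34369.5 in D. This excess amounted to 75.5%, 41.9%, 91.5% and 86.6% of the transgene transcript in the same mice, with a mean of 73.9% ± 22.3 (SD, n = 4). Mouse B had by far the smallest share, and without it the mean was 84.5%. The transgene transcript divided by total Prnp gave 0.855, 1.13, 0.804 and 0.827 in mice A to D, so that only in mouse B did the transgene transcript exceed Prnp. These are ratios of counts that are not corrected for length. Whether reads of the transgene were counted for Prnp was not tested.

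The transgene transcript outnumbered endogenous Tardbp in every bigenic mouse. The ratio of their normalized counts was 6.32, 5.99, 7.55 and 7.79 in mice A to D, with a mean of 6.91 ± 0.891 (SD, n = 4). The sum of both, set against the mean Tardbp of the nontransgenic mice, was 5.84, 5.24, 7.20 and 6.85, a mean of 6.28 ± 0.901 (SD, n = 4). In the nontransgenic mice the same sum lay between 0.948 and 1.09. All 4 bigenic mice lay above all 4 nontransgenic mice in this sum. These ratios also take no account of length.

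Per length, Prnp was the more abundant of the 2 annotated genes in both groups. Per kilobase of exon, Prnp had 5827 ± 456 normalized counts and Tardbp 874 ± 56.1 in the nontransgenic mice (SD, n = 4). In the bigenic mice the same levels were 17515 ± 4899 for Prnp and 693 ± 33.3 for Tardbp. Divided by the kilobases of coding sequence instead, the same counts gave 17915 for Prnp and 4646 for Tardbp in the nontransgenic mice. Those counts take in all exons, so these are not levels of the coding sequence alone. The ratio of Prnp to Tardbp, uncorrected for length, was 7.39, 5.29, 9.39 and 9.42 in bigenic mice A to D and 2.24, 2.30, 2.17 and 1.70 in nontransgenic mice A to D, without overlap.

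Prnp lies on the plus strand of chromosome 2 of mm9, at chr2:131735664-131764165, with 2 annotated transcripts, 2343 bases of exon and 762 bases of coding sequence. Its exons share 145 bases, 6.19% of their length, with those of Prnd on the same strand, which encodes the prion-like protein doppel and did not pass the filter. Tardbp lies on the minus strand of chromosome 4, at chr4:147986491-148001128, with 12 annotated transcripts, 7477 bases of exon and 1407 bases of coding sequence. Its exons share 1817 bases, 24.3% of their length, with Masp2 on the opposite strand, a protease of the complement system that did not pass the filter either. Whether the authors counted by strand is not given in the sources used here, and reads in the shared bases cannot be given to either gene.

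Against the mouse genome alone, most of both genes could take uniquely mapping reads. Of all windows of 50 bases in their exons, 96.1% for Prnp and 91.9% for Tardbp occur once in the mouse genome. The sequence of the transgene was not part of this search, so the shares do not show which windows also occur in the transgene. Within the coding exons the share was 100% for Prnp and 91.5% for Tardbp. The reads were mapped with up to 2 mismatches, and mouse and human TDP-43 are closely related proteins. How many reads of the human transgene were counted for mouse Tardbp, or of Tardbp for the transgene transcript, was not tested.

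The 3′ UTR of Tardbp, the region through which the protein acts on its own mRNA, has 5879 bases in the annotation. It holds the letters TGTGTG at 6 places on the transcript strand, overlapping matches counted, or 1.02 per kilobase. Of 970 genes with a 3′ UTR of at least 4000 bases, 95.6% hold the same letters, with a median of 0.916 per kilobase, so Tardbp lay near the median. The 3′ UTR of Prnp, with 1235 bases, holds none.

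The 3 tested genes that start within 100 kb of Prnp or Tardbp gave no common direction. Rassf2, a Ras association domain protein downstream of Prnp, had 1269, 1224, 1039 and 1014 normalized counts in bigenic mice A to D and 1351, 1424, 1595 and 1390 in nontransgenic mice A to D. It was lower in all bigenic mice without overlap, and its log2(fold change) was -0.35 (SE 0.10, adjusted p-value = 0.0208 with limma), opposite to Prnp. Its adjusted p-value was 0.0539 without bigenic mouse C, 0.0589 without bigenic D, 0.0529 without nontransgenic B and 0.0697 without nontransgenic C. Srm, the spermidine synthase gene beside Tardbp, had 678, 478, 682 and 736 normalized counts in bigenic mice A to D and 521, 451, 461 and 384 in nontransgenic mice A to D. Bigenic mouse B lay among the nontransgenic mice, and the log2(fold change) was 0.49 (SE 0.15, adjusted p-value = 0.0253 with limma). Leaving out any mouse but bigenic B or nontransgenic A took its adjusted p-value above 0.05, to 0.0605, 0.0564 and 0.0674 without bigenic A, C and D and 0.0619, 0.0572 and 0.0659 without nontransgenic B, C and D. Exosc10, the catalytic exosome subunit gene on the same side, had 888.5 ± 65.2 and 905 ± 26.5 normalized counts (SD, n = 4 each) and a log2(fold change) of -0.029 (SE 0.08, adjusted p-value = 0.788 with limma). It was 0.020 without bigenic mouse B.

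Camk2a, the native gene whose promoter drives tTa, was lower in the bigenic cortex. It had 22112, 30548, 25011 and 24809 normalized counts in bigenic mice A to D and 44895, 45967, 49794 and 46914 in nontransgenic mice A to D. All bigenic mice lay below all nontransgenic mice. Bigenic mouse B, the mouse with the least transgene transcript, was the highest of its group for Camk2a. Bigenic mouse A, which had the next least transgene transcript, was the lowest, so Camk2a did not follow the order of the transgene transcript. The log2(fold change) was -0.88 (SE 0.10, adjusted p-value = 0.000176 with limma).

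The genes whose profile over the mice was most like that of each transcript were found by the SD of the difference in log2(normalized count + 1), where 0 means a constant ratio. For Tardbp, over all 8 mice, these were Hnrnpa2b1, which encodes an RNA-binding protein related to TDP-43, with an SD of 0.03, Mtap2, the gene of the dendritic microtubule protein MAP2, with 0.04, and Nupl1, a gene of the nuclear pore, with 0.05. The median over all genes was 0.29. Hnrnpa2b1 had 6267, 6126, 6815 and 6261 normalized counts in bigenic mice A to D and 7691, 7797, 7926 and 8919 in nontransgenic mice A to D. Like Tardbp it was highest in nontransgenic mouse D and lowest in bigenic mouse B, and the groups did not overlap.

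For Prnp, over all 8 mice, the most similar genes were Zfp280b, a zinc finger gene, with an SD of 0.16, 4930572J05Rik with 0.25 and Serpina3n, a serine protease inhibitor gene induced in reactive glia, with 0.25, against a median over all genes of 0.89. Zfp280b had 1422, 1038, 1728 and 1886 normalized counts in bigenic mice A to D and 448, 453, 435 and 487 in nontransgenic mice A to D. Serpina3n had 362, 273, 481 and 511 in bigenic mice A to D and 181, 178, 215 and 157 in nontransgenic mice A to D. Both were lowest in bigenic mouse B within their group, as Prnp was, and both were highest in mouse D, where Prnp was highest in mouse C.

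**Figure D4:**
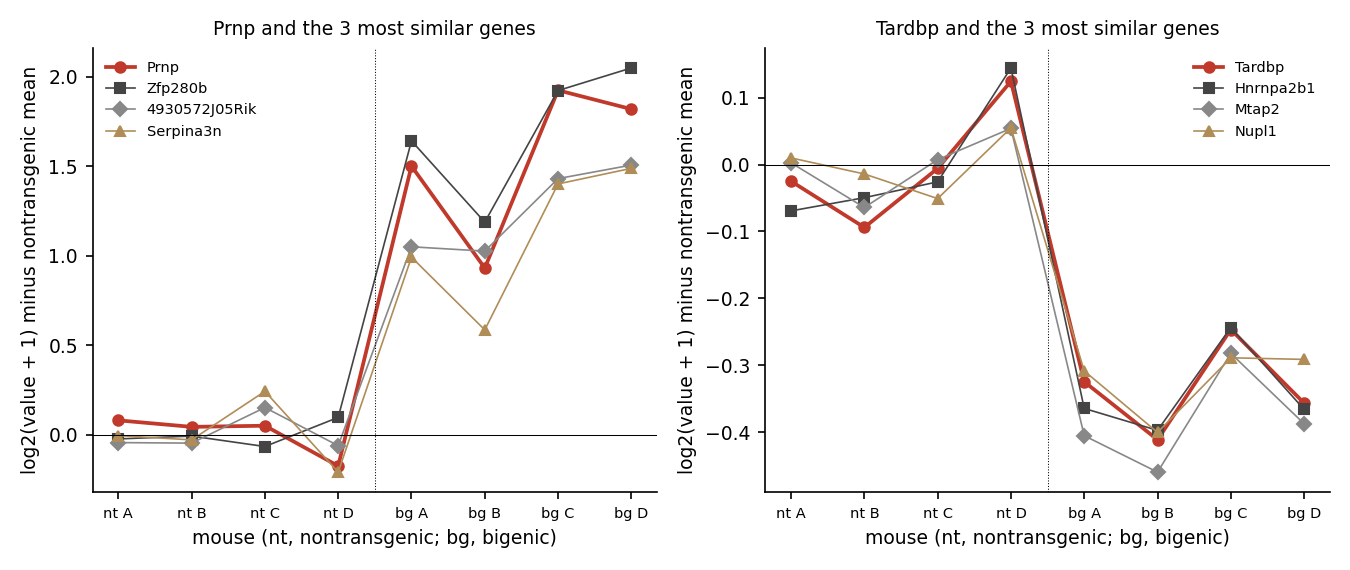
Log2(normalized count + 1) minus the nontransgenic mean for Prnp (left) and Tardbp (right) and the 3 genes most similar to each in each of 8 mice (nt, nontransgenic; bg, bigenic), with lines joining the values of a gene only to guide the eye. The lines of Tardbp and Hnrnpa2b1, whose differences have an SD of 0.03, nearly coincide, while those of Prnp and its most similar gene, Zfp280b, differ with an SD of 0.16.

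For the transgene transcript only the 4 bigenic mice were used. Gcnt4, a glycosyltransferase gene, had an SD of 0.01 and 952, 836, 1189 and 1144 normalized counts in mice A to D, Rasgrp1, a Ras activator gene of forebrain neurons, had an SD of 0.01, and Dazap1, an RNA-binding protein gene, also had 0.01. The median over all genes was 0.28, and with 4 mice many genes can have a small SD. Prnp held place 3915 and Tardbp place 2774 in this order, so Prnp shared the order of the bigenic mice with the transgene transcript but not its size of differences. Gcnt4, Rasgrp1 and Dazap1 ranked the 4 bigenic mice in the same way. The 3 most similar genes did not share a direction between the groups. Gcnt4 had a higher mean in the bigenic mice (1030 against 536 normalized counts), Rasgrp1 a lower mean (11956 against 15489) and Dazap1 a similar one (598 against 559).

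Listed genes of transport through the nuclear pore were called in both directions. Of 17 listed genes of nuclear import and export 16 were tested, and 1 rose and 3 fell, 25% of them where 35.9% of all genes were called. The median log2(fold change) was 0.068, against 0.029 for all genes. Tnpo3, an import receptor of splicing factors, rose from 2052 ± 139 to 2594 ± 267 normalized counts (SD, n = 4 each), a difference of 0.34 on the log2 scale (SE 0.09, adjusted p-value = 0.0173 with limma). Tnpo1, an import receptor of hnRNP A proteins, fell from 1211 ± 38.9 to 944.5 ± 115 (log2(fold change) -0.37, adjusted p-value = 0.0149). Cse1l, which returns importin α to the cytoplasm, fell (log2(fold change) -0.39, adjusted p-value = 0.0275), as did Ran, the GTPase that gives transport its direction (-0.41, adjusted p-value = 0.0296).

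Kpnb1, the importin β that carries TDP-43 with importin α, had 6735 ± 476 normalized counts in bigenic mice against 5846 ± 195 in nontransgenic mice (SD, n = 4 each), a log2(fold change) of 0.20 that did not pass the test (SE 0.07, adjusted p-value = 0.0525 with limma). Without bigenic mouse B its adjusted p-value was 0.0411. The folds of the called genes were about as large in the fits that lost a call. The adjusted p-value was 0.0599 for Tnpo3 without nontransgenic mouse B (log2(fold change) 0.29), and for Cse1l it was 0.0849 and 0.0722 without nontransgenic A and C (-0.33 and -0.38). For Ran it was 0.0527 without bigenic A and 0.0866, 0.0718 and 0.0699 without nontransgenic A, B and C, with log2(fold changes) from -0.42 to -0.37. The count of called genes of the list was 8 without bigenic B, where 45.5% of all genes were called, and 2 without nontransgenic A, B or C, where 26.0%, 25.2% and 25.1% were.

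Genes of nonsense-mediated decay and of the exosome, which degrade aberrant transcripts, changed in 4 of 21 tested cases, all upward, of 26 listed. This is 19.1% of them, below the 35.9% of all genes called in either direction and near the 20.5% called higher. The median log2(fold change) was 0.15. Any part of these genes in the turnover of autoregulated Tardbp mRNA was not measured. Upf2, which joins the decay factors to the exon junction complex, had 4079, 4928, 4222 and 3944 normalized counts in bigenic mice A to D and 2776, 2595, 2496 and 2973 in nontransgenic mice A to D. All bigenic mice lay above all nontransgenic mice, and the log2(fold change) was 0.66 (SE 0.09, adjusted p-value = 0.000648 with limma). Smg6, an endonuclease (log2(fold change) 0.48, adjusted p-value = 0.00122), and Upf1, the central helicase (0.43, adjusted p-value = 0.00681), also rose.

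Genes of enzymes and other proteins reported to act on TDP-43 protein changed in both directions. Of 24 listed and tested genes 5 rose and 7 fell, 50% where 35.9% of all genes were called, with a median log2(fold change) of -0.13. Ppp3ca, the catalytic subunit of the phosphatase calcineurin, had 8258, 6690, 8127 and 7954 normalized counts in bigenic mice A to D and 15918, 14441, 16086 and 14658 in nontransgenic mice A to D. It was lower in every bigenic mouse (log2(fold change) -0.98, SE 0.08, adjusted p-value = 4.89e-05 with limma). Ttbk1, a tau tubulin kinase, had 4454, 7168, 4410 and 4978 normalized counts in bigenic mice A to D and 2099, 2294, 2349 and 2690 in nontransgenic mice A to D. It was higher in every bigenic mouse and highest in mouse B (log2(fold change) 1.13, SE 0.15, adjusted p-value = 0.000535). Csnk1d, a casein kinase that phosphorylates TDP-43, rose by 0.48 on the log2 scale (adjusted p-value = 0.00355) and Usp8, a deubiquitinase, by 0.45 (adjusted p-value = 0.00226). Bigenic mouse B was the highest for all of Ttbk1, Csnk1d and Usp8, and without it their log2(fold changes) were 0.97, 0.40 and 0.40.

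The RNA-binding partners and relatives of TDP-43 were called at the rate of all genes. Of 30 listed and tested genes 4 rose and 7 fell, 36.7% against 35.9% of all genes, with a median log2(fold change) of -0.049. Rbfox1, a neuronal splicing factor, had 3534, 3929, 3709 and 3433 normalized counts in bigenic mice A to D and 7223, 6512, 7252 and 6947 in nontransgenic mice A to D. It was lower in every bigenic mouse (log2(fold change) -0.94, SE 0.07, adjusted p-value = 3.26e-05 with limma). Hnrnpa3 (log2(fold change) -0.84, adjusted p-value = 0.00407) and Hnrnpa2b1 (-0.34, adjusted p-value = 0.00608), genes of the hnRNP A/B proteins, and Tia1, a gene of stress granules (-0.42, adjusted p-value = 0.00626), fell as well. Hnrnpa3 is a low gene here, with 218 ± 44.0 and 386 ± 50.5 normalized counts (SD, n = 4 each). The count of called genes was 7 without bigenic D or nontransgenic A, where 30.5% and 26.0% of all genes were called, and 5 without nontransgenic B or C, where 25.2% and 25.1% were.

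The prion protein family and the ligands and processing enzymes of the prion protein did not share the rise in counts of Prnp. Whether reads of the transgene were part of that rise was not tested. Of 23 listed genes 21 were tested, of which 4 rose and 4 fell, 38.1% against 35.9% of all genes, with a median log2(fold change) of -0.019. Sprn, the gene of the prion-like protein shadoo, had 3698, 2895, 3785 and 3666 normalized counts in bigenic mice A to D and 3886, 3633, 3782 and 2921 in nontransgenic mice A to D. The groups overlapped throughout, and the log2(fold change) was -0.018 (SE 0.12, adjusted p-value = 0.917 with limma). It was 0.072 without bigenic mouse B, 0.028 without nontransgenic A and 0.015 without nontransgenic C. Adam10, the main sheddase of the prion protein, had a log2(fold change) of 0.00.

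Within the prion protein list Slc39a10, a zinc transporter of the family from which prion genes are thought to descend, fell most. It had 2746, 2087, 3449 and 3407 normalized counts in bigenic mice A to D and 7883, 6550, 7149 and 6268 in nontransgenic mice A to D, without overlap (log2(fold change) -1.28, SE 0.16, adjusted p-value = 0.000315 with limma). Stip1, a co-chaperone that binds the prion protein when secreted, had 5663, 9581, 5649 and 5698 normalized counts in bigenic mice A to D and 3619, 3523, 3489 and 4030 in nontransgenic mice A to D (log2(fold change) 0.82, SE 0.16, adjusted p-value = 0.00394). Bigenic mouse B stood far above the other bigenic mice for Stip1, and without it the log2(fold change) was 0.63. Mtor, a growth kinase gene, rose (0.30, adjusted p-value = 0.0116), and Adam9, a protease gene, fell (-0.37, adjusted p-value = 0.0184). The adjusted p-value of Adam9 was 0.0511 without bigenic D, 0.0544 without nontransgenic B and 0.0542 without nontransgenic C, and the count of called genes of the list was 4 without bigenic D, nontransgenic A or nontransgenic B and 3 without nontransgenic C. All genes were called at 30.5%, 26.0%, 25.2% and 25.1% in these fits.

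**Figure D5:**
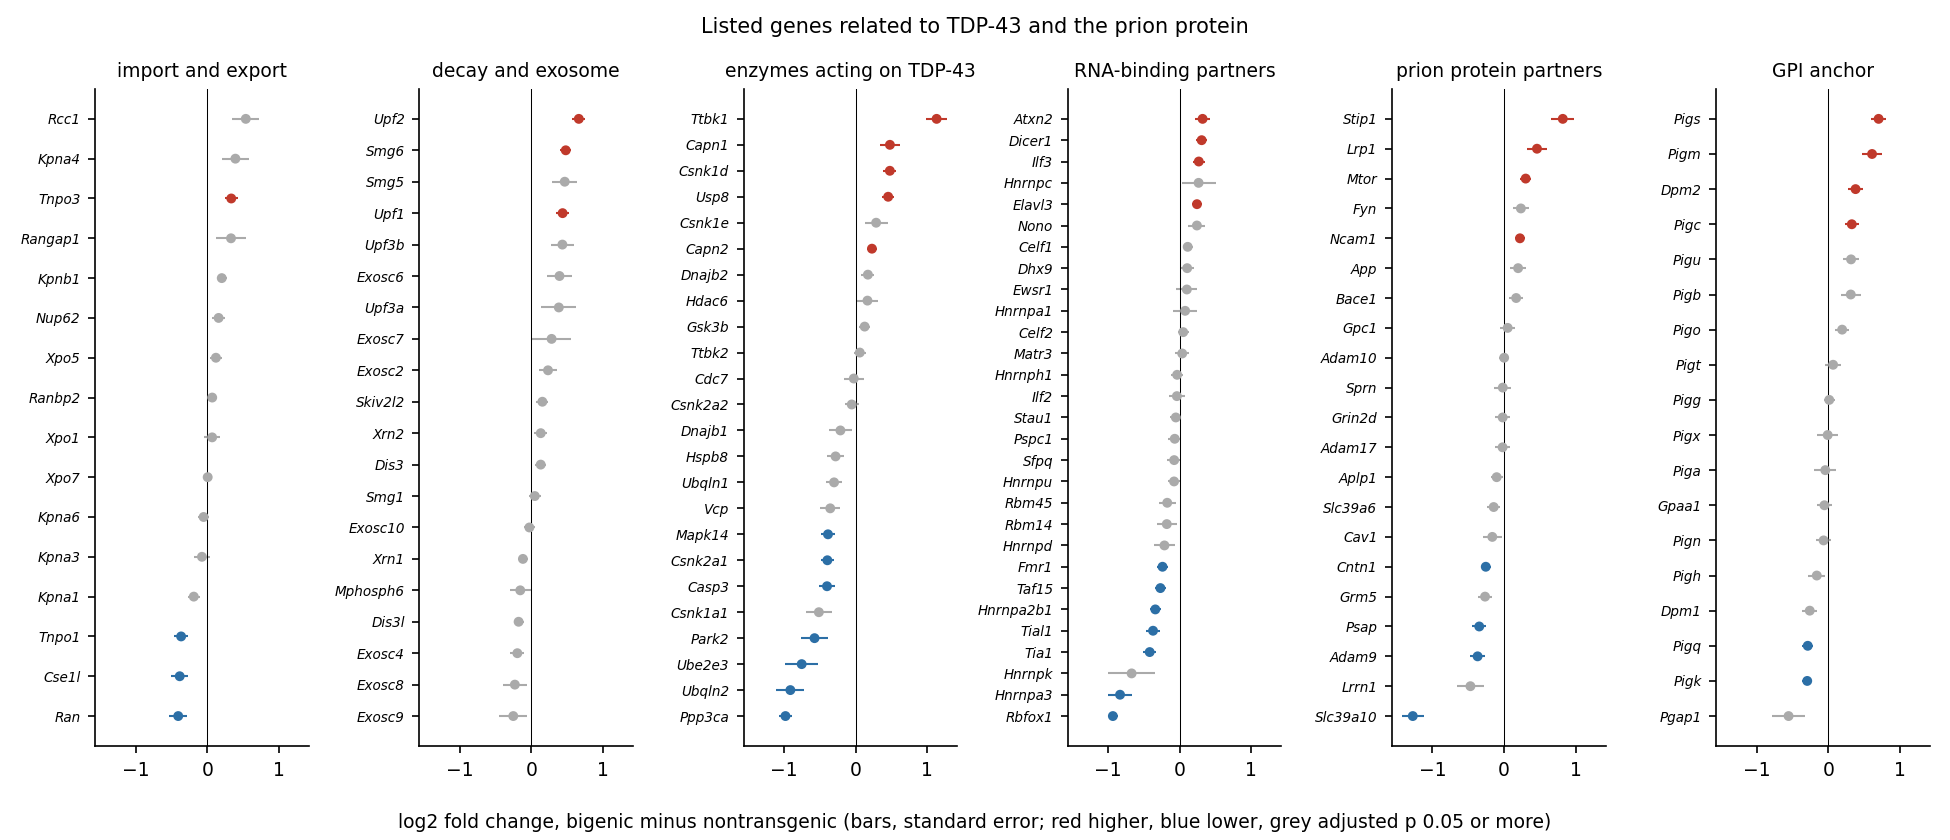
Log2(fold change), bigenic minus nontransgenic, with its standard error for the tested genes of 6 lists related to TDP-43 and the prion protein that are reported here, in red where higher and in blue where lower at a limma adjusted p-value below 0.05, and in grey otherwise. Called genes lie on both sides of 0 in each list but that of decay and exosome, where the called genes are higher, and no listed gene differs by as much as the 1.54 of Prnp in either direction.

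The GPI anchor genes, whose products build the anchor of the prion protein and attach it, moved in both directions. Of 27 listed genes 18 were tested, of which 4 rose and 2 fell, 33.3% against 35.9% of all genes, with a median log2(fold change) of 0.00. Pigs and Pigk encode subunits of the transamidase that attaches the anchor. Pigs rose from 682 ± 15.2 to 1121 ± 174 normalized counts (SD, n = 4 each; log2(fold change) 0.70, adjusted p-value = 0.000921 with limma), and Pigk fell from a mean of 1622 to a mean of 1322 (-0.29, SE 0.07, adjusted p-value = 0.0123). Pigm, a mannosyltransferase, rose (0.61, adjusted p-value = 0.00678). Pigq, of the complex that starts the anchor, fell (-0.29, adjusted p-value = 0.0143, or 0.0536 without nontransgenic C). The count of called genes was 10 without bigenic B, where 45.5% of all genes were called.

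Bigenic mouse B, the shallowest library by the estimate of reads, was the lowest of its group for all 3 transcripts. Of all genes tested, 20.5% were called higher and 15.4% lower, and cell type markers are set beside these shares. The 9 excitatory neuron markers had summed normalized counts of 59278 to 79390 in the bigenic mice against 87267 to 94769 in the nontransgenic mice, with 1 higher and 2 lower, and bigenic B had the highest sum of its group. The 4 tested choroid plexus markers of 6 were all higher, with sums of 8385 to 19459 against 363 to 1203, and all 5 tested microglia markers of 6 were lower, with 3278 to 3709 against 4385 to 4956. Of 6 astrocyte markers 4 were lower (105432 to 124206 against 130615 to 141387) and of 5 interneuron markers 2 (13657 to 14315 against 15366 to 16925). Oligodendrocyte sums overlapped (57411 to 76302 against 57710 to 72582, 1 of 5 higher), as did those of endothelium (3000 to 3499 against 3388 to 4164, 1 of 4 lower). The part of library depth and of these cell types in the values of the 3 transcripts was not tested.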

How the data were processed

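Poly(A)+ RNA of the right cortex was sequenced by the authors in reads of 50 bases. They trimmed adaptors with cutadapt, mapped to mm9 with Bowtie 0.12.7 with up to 2 mismatches and a mismatch rate of at most 0.06, kept uniquely mapping reads, counted them on exons with bedtools and summed the exons of a gene. The deposited table holds values that behave like a score: whole-number counts scaled by a factor per mouse, a step not described in the sources used here. A second table of the authors' own DESeq2 comparison holds fold changes and p-values and was used only for gene symbols.

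The value of 1 read in each column was estimated by maximum likelihood (values up to 300), and 8 of 8 simulated steps were recovered within 1 percent. Not all columns give back whole reads, so tests for raw counts were not run. Precision at low values follows from depth, with a floor of 3 reads. Values of the 10588 genes with at least 10 RPM in at least 1 mouse were compared as log2(value + 1) with limma 3.58.1 in R 4.3.3 (lmFit and eBayes, trend allowed), adjusted by Benjamini-Hochberg over all genes with a threshold of 0.05, after a test on simulated data. The scale understates changes of low genes. That the 4 mice of a group are separate animals comes from the methods of the study. Positions, exons and sequence come from GENCODE and the genome of the same build. Other steps used scipy 1.17.1, pandas 2.3.3, numpy 2.4.6 and Python 3.11.15. Named genes are the 3 transcripts, tested genes within 100 kb of Prnp or Tardbp, genes whose exons overlap theirs, Camk2a, Prnd, Sprn, Kpnb1 and Upf1, the 4 genes of each list with the smallest adjusted p-value, and the 3 most similar genes per transcript. Some listed genes are counted but not reported here by name. Adam10 was named after its value was seen. The transcripts and the lists were chosen with earlier results of these data known. Alternatives were pseudocounts of 10 and 0.1, other filters on low values, other scalings, limma's array weights, a threshold of 0.01 and leaving out each mouse.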

Additional observations from a re-analysis of the deposited data

Results flagged for a closer look

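Values that stood apart from the other mice of their group were looked for in 88 groups of 4 mice, and 10 passed Dixon's criterion, where chance alone would give about 1 in 20. In bigenic mouse B, Usp8 (3162 normalized counts, next 2760), Csnk1d (4465, next 3621) and Stip1 (9581, next 5698) were far above and Sprn (2895, next 3666) far below the other bigenic mice. The ratio of the transgene transcript to Prnp in that mouse (1.13, next 0.855) was also apart. Among the nontransgenic mice, Prnp was low in mouse D (12066, next 14040), where Csnk1d was high (2946, next 2645), and Adam9 was low in mouse A (1529, next 1625). In nontransgenic mouse C, Dazap1 (593, next 551) and 4930572J05Rik (582, next 508) were high.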

How the results depend on the processing

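The 3 transcripts kept their direction under every alternative that was run. The log2(fold change) lay between 10.19 (pseudocount 10) and 11.18 (quantile normalization) for the transgene transcript over the alternatives with all mice, and between 10.33 and 11.58 when a mouse was left out. It was not in the fit of genes past the filter in every mouse. For Prnp it was 1.79 with array weights and 1.42 to 1.75 when a mouse was left out, and for Tardbp -0.28 with array weights and -0.37 to -0.29. With array weights the genes called numbered 6455 (3611 higher, 2844 lower) in place of 3796, and at an adjusted p-value of 0.01 they numbered 2057 (1195 higher, 862 lower). Array weights also gave 12 GPI anchor genes, 11 decay and exosome genes, 11 import and export genes and 15 prion protein list genes. Leaving out each mouse gave 5 to 11 RNA-binding partners, 4 to 10 GPI anchor genes, 2 to 8 import and export genes and 3 to 12 prion protein list genes, while the genes called of all tested numbered 2654 (25.1%) to 4817 (45.5%). With array weights 61.0% of all genes were called. In an alternative chosen after seeing the data, leaving out each bigenic mouse gave an SD of log2 in the bigenic mice of 0.22 to 0.55 for Prnp and 0.044 to 0.084 for Tardbp. Exosc10 (0.029 with array weights, -0.064 to 0.020 when a mouse was left out, above 0 without bigenic B) and Sprn (0.016 with array weights, -0.11 to 0.072 when a mouse was left out, above 0 without bigenic B, nontransgenic A or nontransgenic C) changed sign, and neither was called. The cause of these changes was not tested. Kpnb1 was called with rescaling (adjusted p-value = 0.0342), quantile normalization (0.0271), array weights (0.0111) and the filter in every mouse (0.0483), by limma in each case. Over the named genes other than the 3 transcripts, the direction and the call were kept in 528 of the comparisons with an alternative, while 28 lost a call, 6 gained one and 6 changed sign. No paired analysis was possible because the columns of the table carry none of the labels' replicate numbers. With 3 reads worth up to 6.20 normalized counts, differences between the nontransgenic mice in the transgene transcript rest on few reads.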
